A study of Mus musculus with 2 samples.

Results

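The Hox genes are the homeobox genes of clusters A, B, C and D, taken as every gene symbol made of Hox, a cluster letter and a paralogue number. The mouse annotation holds 39 such genes, and 35 of them are among the 17809 genes listed for the wild-type library and 30 among the 15972 listed for the reporter library. All 30 genes of the reporter list are also in the wild-type list, Hoxb8, Hoxc8, Hoxd1, Hoxd3 and Hoxd12 are listed for the wild-type library alone, and Hoxb1, Hoxc5, Hoxc12 and Hoxc13 are listed for neither. Cluster A (chr6:52155590-52260880, minus strand, GRCm38) has 11 of 11 genes listed in both libraries. Cluster B (chr11:96194316-96368256, plus strand) has 9 of 10 listed for wild-type cells and 8 for reporter cells, cluster C (chr15:102921103-103036852, plus strand) has 6 and 5 of 9, and cluster D (chr2:74668310-74765142, plus strand) has 9 and 6 of 9.

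Hox genes encode homeodomain transcription factors that set position along the body axis in the embryo. Within a cluster the genes lie in the order of their paralogue groups, from group 1, the first to be activated and the most anterior, to group 13, which is restricted to the hindgut, the tail end and the tips of the limbs. Genes of the same group in different clusters are copies of a common ancestor, and many adult tissues keep a part of the embryonic pattern.

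Transcripts of single cells were counted in 2 mouse colon libraries, each pooled from 3 female mice aged 8 to 12 weeks. The wild-type library (C57BL/6, version 3 of a droplet kit that reads the 3′ ends of transcripts) mixed sorted EpCAM+ CD45- epithelial and EpCAM- CD45- non-epithelial cells in equal parts. The reporter library (Pdgfra-H2B-eGFP mice, version 2 of the kit) held GFP-positive mesenchymal cells, in which a nuclear GFP made from the Pdgfra locus marks the cells. The labels give neither the stretch of colon nor a map from cells to mice, so each library is 1 sample, no test across animals is possible, and every interval given here covers counting error only. The libraries were set side by side but not merged, since kit, sort and mouse line all differ between them.

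The deposited values are corrected counts, set by the authors' normalisation to a common depth within each library, with totals per cell of 6120 to 16389 in the wild-type library (7495 cells, median of 2804 genes per cell) and 2314 to 4432 in the reporter library (4409 cells, median of 1381 genes). Cells were clustered without the Hox genes and named from marker lists. The wild-type library gave 815 crypt top fibroblast-like (CTFs-like), 1140 crypt bottom fibroblast 1-like (CBFs1-like), 505 CBFs2-like, 950 smooth muscle-like, 118 pericyte-like, 590 blood endothelial-like, 45 lymphatic endothelial-like, 78 glia-like and 2479 epithelial cells, and the reporter library 523 CTFs-like, 2867 CBFs1-like and 853 CBFs2-like cells. The 7 CBFs1 markers summed to 60.2 corrected counts per cell in wild-type CBFs1-like and 3.94 in CBFs2-like cells, and the 8 CBFs2 markers to 26.6 and 49.5. Of the 3 clusters that make up the reporter CBFs1-like cells, 1 was led by Sbno2, Tnfaip3 and Cxcl2, which are stress and inflammation genes, and 1 by Saa3, Nrg1 and Cxcl9. A count of 1 barcode sequence was shared by both libraries, and Scrublet, a doublet caller, marked 0.0934% of wild-type and 0.113% of reporter cells, too few to have worked, so doublets were not removed.

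Promoter windows are shown for Hoxb4, of the run of cluster B genes that separated CBFs2-like from the other fibroblasts, and for 3 posterior genes whose levels parted the cell types. RefSeq promoter windows (GRCm38.p6) were found for 22 of the 39 genes, 24 windows in all, and the 250 bases before the start site are printed 5′ to 3′ on the gene's strand, with each CG dinucleotide in capitals. Hoxb4 (chr11:96318017-96318266, plus) is central in cluster B, Hoxa11 (chr6:52245811-52246060, minus) and Hoxa13 (chr6:52260881-52261130, minus) lie at the posterior end of cluster A, and Hoxd13 (chr2:74667975-74668224, plus) at that of cluster D.
Hoxb4: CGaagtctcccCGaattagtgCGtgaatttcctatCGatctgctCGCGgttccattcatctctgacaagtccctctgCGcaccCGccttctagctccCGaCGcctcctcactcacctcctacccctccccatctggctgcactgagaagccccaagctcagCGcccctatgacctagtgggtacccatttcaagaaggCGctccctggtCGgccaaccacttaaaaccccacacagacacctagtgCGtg
Hoxa11: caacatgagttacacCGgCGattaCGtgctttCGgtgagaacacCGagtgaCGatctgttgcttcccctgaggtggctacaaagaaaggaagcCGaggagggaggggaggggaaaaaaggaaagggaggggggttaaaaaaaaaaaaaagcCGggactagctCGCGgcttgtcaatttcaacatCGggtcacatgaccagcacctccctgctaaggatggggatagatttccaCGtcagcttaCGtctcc
Hoxa13: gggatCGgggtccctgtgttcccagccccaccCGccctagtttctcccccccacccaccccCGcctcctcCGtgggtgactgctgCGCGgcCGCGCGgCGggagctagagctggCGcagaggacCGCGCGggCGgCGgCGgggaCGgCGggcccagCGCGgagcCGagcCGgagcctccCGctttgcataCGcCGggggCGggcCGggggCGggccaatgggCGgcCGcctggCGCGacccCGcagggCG
Hoxd13: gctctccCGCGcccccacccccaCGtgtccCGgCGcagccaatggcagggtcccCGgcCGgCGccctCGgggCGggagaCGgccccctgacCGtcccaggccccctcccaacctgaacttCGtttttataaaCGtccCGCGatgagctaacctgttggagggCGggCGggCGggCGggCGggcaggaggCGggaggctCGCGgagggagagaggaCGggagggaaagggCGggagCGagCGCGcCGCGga
Hoxa13 held 35 CG dinucleotides at a GC content of 80% and Hoxd13 31 at 74.4%, against 14 at 58% in Hoxb4 and 13 at 52% in Hoxa11. Over the 24 Hox windows the median was 12.5 CG dinucleotides (range 2 to 35) and 58.6% GC, against 6 and 52.4% over all 32841 windows. Both group 13 genes shown here thus lay at the CG-rich end of the Hox windows. On either strand, TTTATGG, the core site of caudal factors, was in 1 Hox window (Hoxd4) and in 2.43% of all windows. TGACAG, a Meis site, was in 2 Hox windows (Hoxa2 and Hoxa3) and in 15.9% of all, and TGATTGAT, a site of Pbx with Hox proteins, was in 2 (Hoxa2 and Hoxd11) and in 0.670% of all. None of the 4 windows printed holds any of these letters.

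Hox transcripts were found in fibroblast, muscle, vessel, glial and epithelial types of the colon, and seldom in the immune-like cells. Among the fibroblasts of the wild-type library a Hox gene was above 0 in 89.4% of CBFs1-like, 84.6% of CBFs2-like and 85.5% of CTFs-like cells. The share was 98.1% for the epithelium, 87.8% for smooth muscle-like and 85.5% for endothelial-like cells, and 7.89% for the 38 immune-like cells (95% Clopper-Pearson interval 1.66 to 21.4). After every cell was thinned to 1000 corrected counts the same shares were 27.5%, 27.1%, 29.0%, 46.2%, 28.0% and 34.6%, so of these types epithelial cells stood highest on both scales. A class of 20 cells named interstitial cells of Cajal-like stood higher still, at 100% and 85%. For the reporter library the deposited shares were 56.9%, 51.1% and 57.9% (CBFs1-like, CBFs2-like, CTFs-like) and the thinned shares 23.2%, 23.1% and 27.9%.

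**Figure D1:**
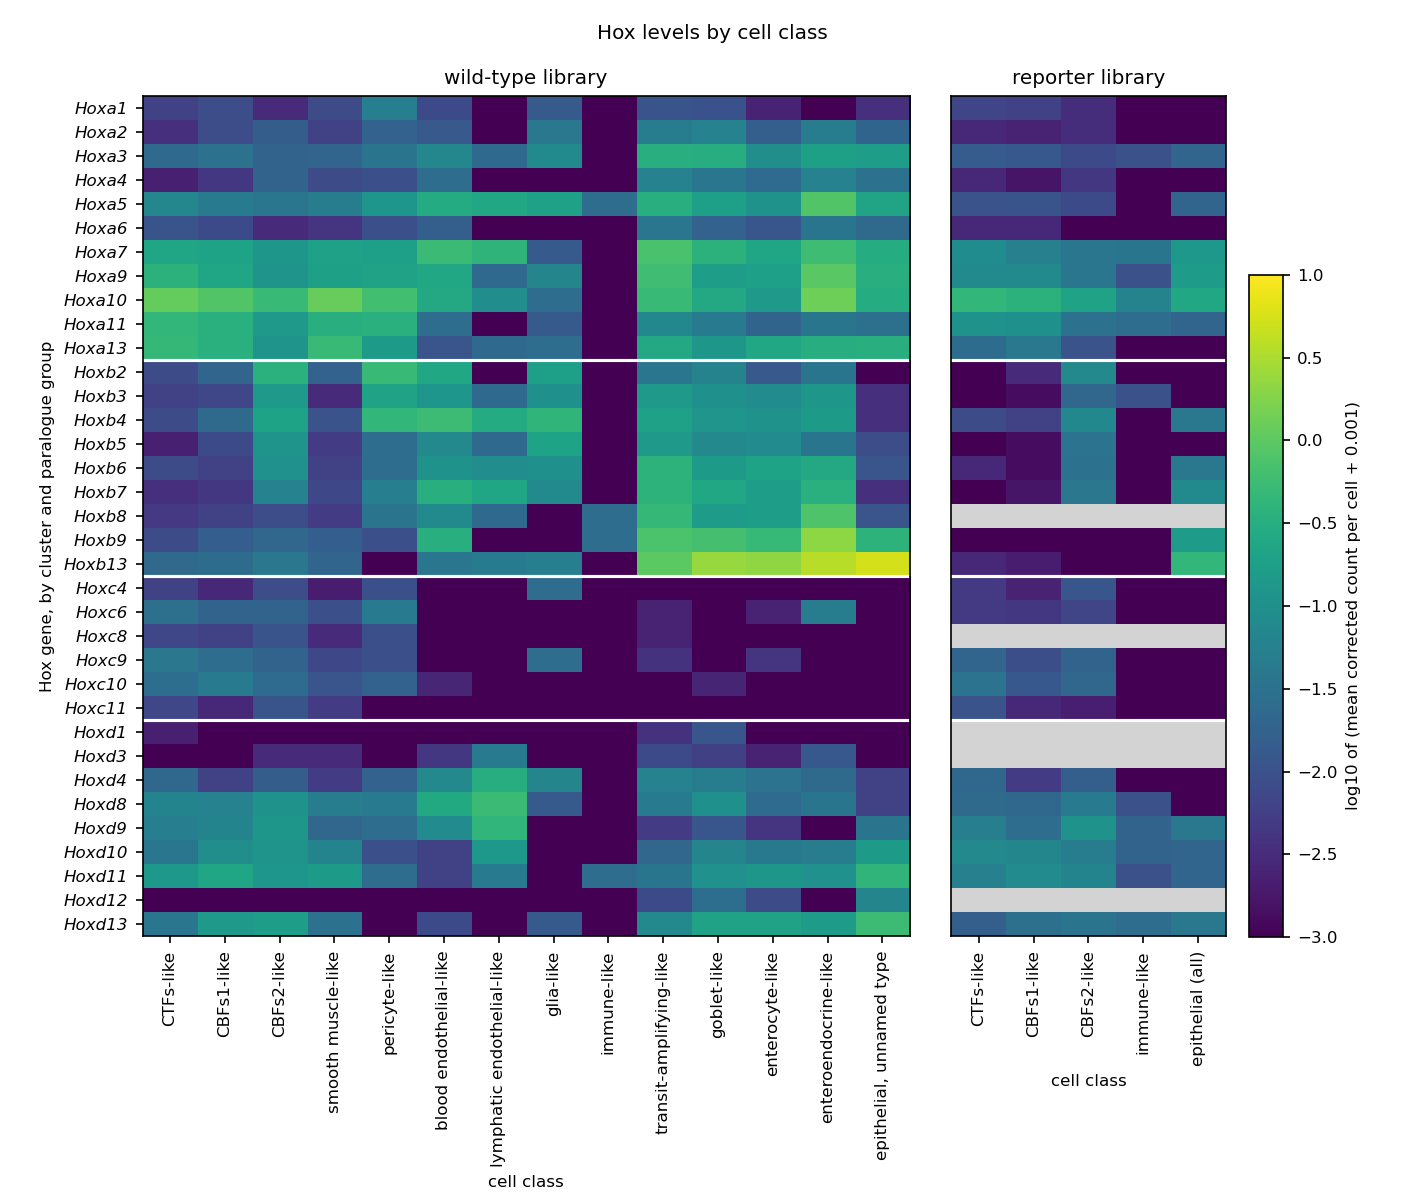
Mean level of each listed Hox gene (rows, by cluster and paralogue group) in each cell class (columns) of the wild-type library, left, and the reporter library, right; colour gives log10 of the mean corrected count per cell plus 0.001, and grey marks genes that a library does not list. Hoxb13 is bright in the epithelial columns alone, and Hoxa10 is bright for the enteroendocrine-like, smooth muscle-like and CTFs-like columns (1.33, 1.17 and 1.13). The highest cluster C value is 0.0465, for Hoxc6 in enteroendocrine-like cells.

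The sum over all Hox genes was close to 3 corrected counts per cell in the named fibroblast, smooth muscle-like and pericyte-like types, from 2.84 (CBFs1-like) through 2.88 (smooth muscle-like), 2.90 (CBFs2-like) and 3.21 (pericyte-like) to 3.27 (CTFs-like), while its make-up differed, and was 1.20 in the 132 fibroblasts of unnamed type. Counts come from 3′ tags and were not divided by transcript length, so sums and shares over genes are of tags. Smooth muscle-like cells drew 85.0% of the sum from cluster A, CTFs-like cells 84.1%, CBFs1-like cells 72.0% and CBFs2-like cells 37.9%. From cluster B they drew 2.85%, 1.99%, 3.82% and 36.0%. CBFs2-like cells were thus the fibroblasts in which cluster B weighed about as much as cluster A, and pericyte-like cells had a like split, at 53.8% for cluster A and 39.8% for cluster B.

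By paralogue range, groups 9 to 13 made up 86.2% of the Hox sum of smooth muscle-like, 84.7% of CTFs-like and 83.6% of CBFs1-like cells. CBFs2-like cells drew 52.9% from these groups and pericyte-like cells 43.5%. In blood endothelial-like cells groups 4 to 8 led with 61.9% and in lymphatic endothelial-like cells with 71.1%. The epithelium was posterior again, at 68.1%, but through cluster B, which held 62.4% of its sum, where cluster A held 69.6% in the 3 named fibroblast types.

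**Figure D2:**
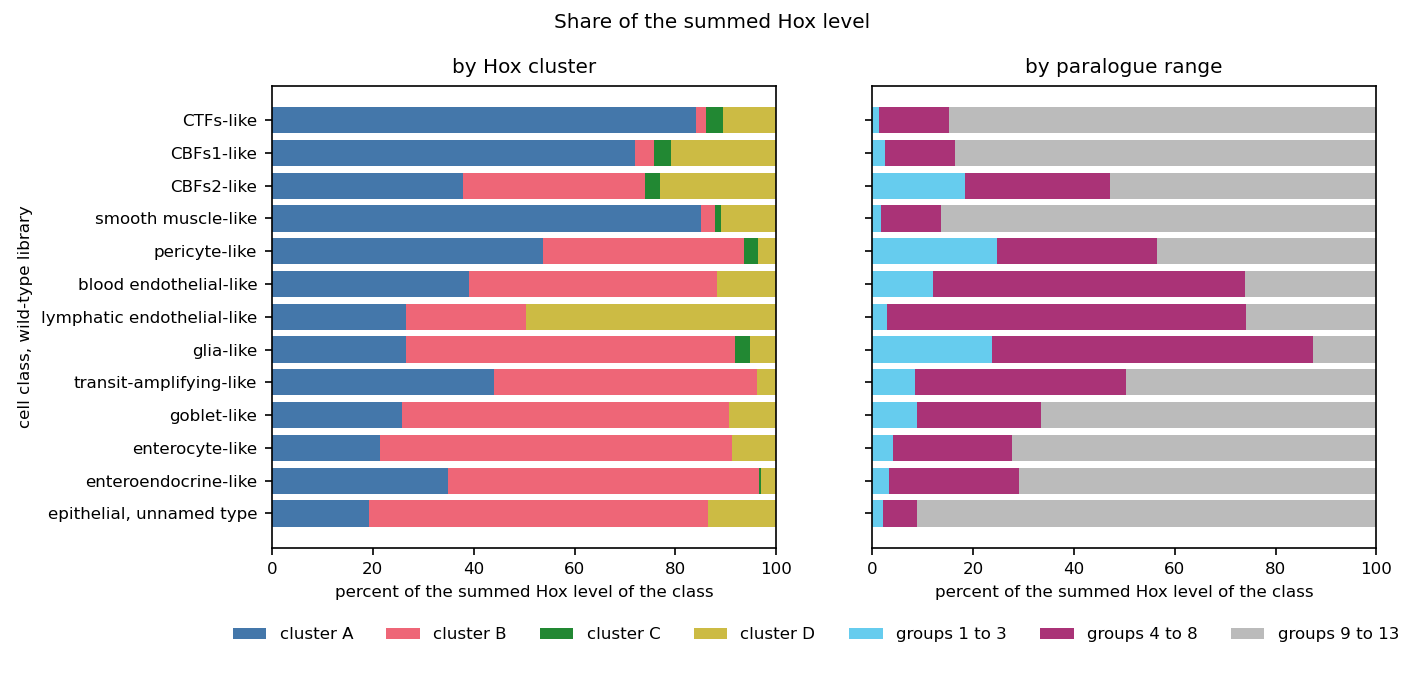
Share of the summed Hox level of each wild-type cell class (bars) that comes from each Hox cluster, left, and from paralogue groups 1 to 3, 4 to 8 and 9 to 13, right, in percent of the sum of mean corrected counts. Cluster A makes up most of the bars for smooth muscle-like and CTFs-like cells, cluster B for epithelial and glia-like cells, and groups 4 to 8 for endothelial and glia-like cells.

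CBFs2-like cells differed from CBFs1-like cells in a run of neighbouring cluster B genes. Hoxb2, a hindbrain patterning gene in the embryo, had a mean corrected count of 0.360 in CBFs2-like, 0.0193 in CBFs1-like and 0.00736 in CTFs-like cells of the wild-type library. Its reporter means were 0.0750, 0.00209 and 0 in the same order. The gene was above 0 in 26.3% of 505 wild-type CBFs2-like cells (interval 22.5 to 30.4) and 1.58% of CBFs1-like cells (0.938 to 2.48), and in 6.68% (5.10 to 8.57) and 0.209% (0.0769 to 0.455) of reporter cells. The intervals do not overlap in either library, and CBFs2-like cells were the high ones in both.

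Hoxb4, which is known for its action in blood stem cells, had means of 0.206 in CBFs2-like and 0.0228 in CBFs1-like cells of the wild-type library, and 0.0715 and 0.00523 in the reporter library. Hoxb3, Hoxb5, Hoxb6 and Hoxb7 had means of 0.139, 0.115, 0.103 and 0.0574 in wild-type CBFs2-like cells and none above 0.00702 in CBFs1-like cells. Hoxb8, the next gene along, was low in both, at 0.00792 and 0.00526, and so was Hoxb9, at 0.0198 and 0.0149. Hoxb8 thus had fewer than the 20 summed counts asked for in a ratio, and the ratio of Hoxb9 stayed within 2-fold. Reporter cells had Hoxb9 at 0 in all 3 fibroblast types (0 of 4243 cells, which, with 3 counts as the limit, allows a share of cells with a count of up to 0.0707%).

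The ratio of mean corrected counts between CBFs2-like and CBFs1-like cells was past 2-fold in the wild-type library for 9 of the 23 Hox genes with at least 20 summed counts, with 7 higher (Hoxb2, Hoxb3, Hoxb4, Hoxb5, Hoxb6, Hoxb7 and Hoxd9) and 2 lower (Hoxa11 and Hoxa13). Among all 12383 genes that met the minimum 8.5% were past 2-fold higher and 5.98% lower. The median log2 ratio of the 23 genes was 0.32, against 0.08 over all genes. Of 20 genes in the reporter library 9 were higher (Hoxb2, Hoxb4, Hoxb5, Hoxb6, Hoxb7, Hoxc9, Hoxd4, Hoxd8 and Hoxd9) and 3 lower (Hoxa9, Hoxa11 and Hoxa13), where all genes gave 4.83% higher and 14.2% lower and medians of 0.51 for the Hox genes and -0.29 for all genes. A gene that reached the minimum only through the class in which it was high had to differ. The counts of this and of every later comparison thus describe the genes listed and are not a share of the whole family.

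Of the 19 Hox genes that met the minimum in both libraries, 8 were past 2-fold in the same direction in both (Hoxa11, Hoxa13, Hoxb2, Hoxb4, Hoxb5, Hoxb6, Hoxb7 and Hoxd9) and 0 in opposite directions. The share of all genes past 2-fold in the same direction in both libraries was not counted, so these numbers describe only the genes named. Hoxb2 had a log2 ratio of 4.22 in the wild-type library (95% interval 3.58 to 4.93) and 5.16 in the reporter library (3.96 to 6.66). Hoxb4 had 3.17 (2.54 to 3.85) and 3.77 (2.94 to 4.69). The reporter ratios of Hoxb5, Hoxb6 and Hoxb7 rested on 1, 1 and 2 corrected counts in CBFs1-like cells and had wide intervals, for Hoxb5 from 3.96 to 11.9 around 6.56. Hoxb3 had a ratio of 4.5 (3.38 to 5.86) in the wild-type library and did not meet the minimum in the reporter library, where its means were 0.0199 and 0.000349.

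**Figure D3:**
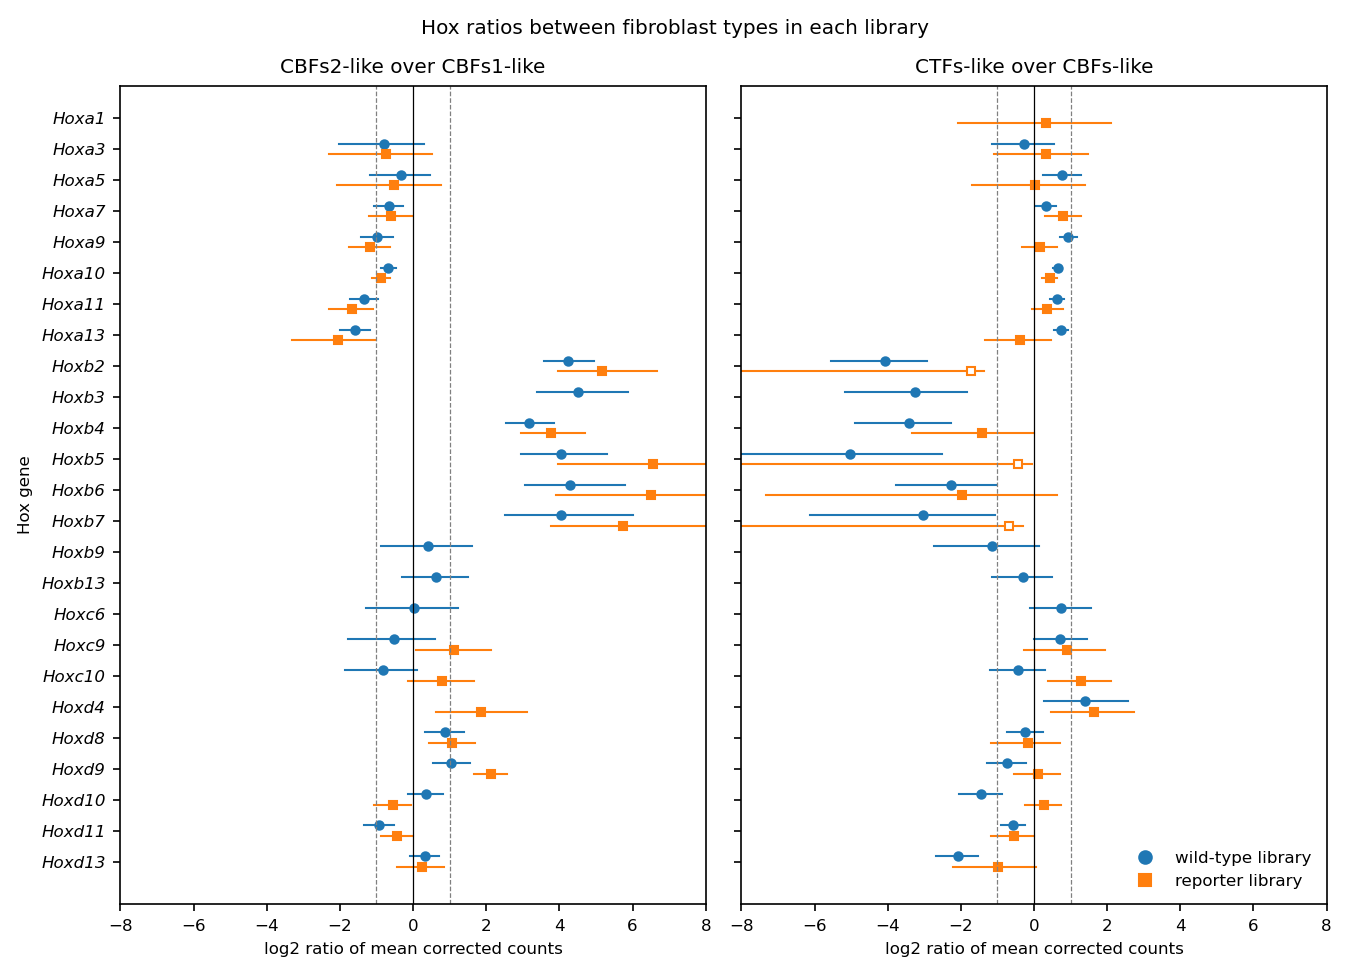
Log2 ratio of mean corrected counts for each Hox gene (rows) with at least 20 summed counts, CBFs2-like over CBFs1-like cells, left, and CTFs-like over CBFs-like cells, right; circles are the wild-type and squares the reporter library, bars are 95% intervals of counting error clipped at the axis limit of 8, dashed lines mark 2-fold and open symbols have 1 class at 0, set to a floor of 3 counts. Hoxb2 to Hoxb7 lie far right of the 2-fold line in the left panel in the wild-type library, and Hoxa11 and Hoxa13 lie left of it in both libraries.

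At the level of single cells, at least 1 of the 7 listed genes from Hoxb2 to Hoxb8 was above 0 in 54.7% of wild-type CBFs2-like cells (50.2 to 59.1), against 4.91% of CBFs1-like (3.73 to 6.33) and 2.45% of CTFs-like cells (1.51 to 3.76). A pair of them or more was found in 19.4% of CBFs2-like and 0.877% of CBFs1-like cells. For the reporter library, which lists 6 of the genes, the shares with at least 1 were 20.4% (17.7 to 23.3), 0.872% and 0.765%. Thinned to 1000 corrected counts they were 12.3%, 1.23% and 0.123% for wild-type cells and 7.50%, 0.174% and 0% for reporter cells, so the order of CBFs2-like above the other fibroblasts held on both scales. Within wild-type CBFs2-like cells Hoxa13 was above 0 in 13.8% of the 276 cells with the block and 8.30% of the 229 without it, and the intervals overlap (9.93 to 18.4 and 5.07 to 12.7).

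The marker lists of 6 other cell types that carry the block or border the stroma were low in both fibroblast types. The 9 endothelial markers summed to 1.41 corrected counts per cell in CBFs2-like (1 of them at 0) and 0.940 in CBFs1-like cells, which is 2.79% and 1.86% of their level in endothelial cells, and the 8 glial markers to 0.0436 and 0.0430, with 3 at 0 in each. The 8 pericyte markers summed to 1.89 and 1.33 (3.39% and 2.40% of their pericyte-like level), the 4 markers of interstitial cells of Cajal to 0.402 and 0.393 and the 9 epithelial markers to 3.25 and 2.62 (2.43% and 1.96%). The 3 mesothelial markers summed to 0.119 in CBFs2-like cells and 0 in CBFs1-like cells, and their part in the result was not tested.

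The posterior HoxA genes moved the other way. Hoxa13, a gene required for the embryonic hindgut, had a mean of 0.117 in CBFs2-like cells against 0.349 in CBFs1-like and 0.464 in CTFs-like cells of the wild-type library, and 0.00938, 0.0391 and 0.0249 in the reporter library. Its log2 ratio of CBFs2-like over CBFs1-like cells was -1.58 (-2.00 to -1.18) and -2.06 (-3.31 to -1.03). Hoxa11, known from limb and uterus, had ratios of -1.33 (-1.72 to -0.96) and -1.66 (-2.29 to -1.09). Hoxa10 was lower by less than 2-fold, at wild-type means of 0.509 and 0.815 and reporter means of 0.203 and 0.372. CBFs2-like cells were thus the lowest of the 3 fibroblast types in all of Hoxa10, Hoxa11 and Hoxa13 in both libraries.

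In cluster D, Hoxd9 was higher in CBFs2-like cells in both libraries, with means of 0.131 and 0.0632 in the wild-type library (log2 ratio 1.05, 0.54 to 1.55) and 0.114 and 0.0262 in the reporter library (2.12, 1.67 to 2.57). Hoxd13, the posterior end of the cluster, had means of 0.174 and 0.139 in CBFs2-like and CBFs1-like cells of the wild-type library and 0.0340 and 0.0290 in the reporter library, a difference of less than 2-fold in each. The group 13 genes of clusters A and D therefore parted between these 2 cell types: only Hoxa13 was past 2-fold.

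CTFs-like cells were compared with both CBFs types together. In the wild-type library 24 Hox genes met the minimum, 1 was past 2-fold higher in CTFs-like cells (Hoxd4) and 9 lower (Hoxb2, Hoxb3, Hoxb4, Hoxb5, Hoxb6, Hoxb7, Hoxb9, Hoxd10 and Hoxd13), against 6.36% of all genes higher and 11.6% lower. Their median log2 ratio was -0.36, against -0.09 over all genes. The reporter library had 21 genes above it, of which 2 were higher (Hoxc10 and Hoxd4) and 3 lower (Hoxb2, Hoxb4 and Hoxb6), against 6.78% and 11.7%, with medians of 0.10 and 0.07. The members from Hoxb2 to Hoxb7 repeat the contrast above in part, since CBFs2-like cells are part of the CBFs-like group. Hoxb9 does not, with wild-type means of 0.0198 (CBFs2-like), 0.0149 (CBFs1-like) and 0.00736 (CTFs-like). Wild-type CTFs-like cells were also below CBFs1-like cells alone for Hoxb2 (0.00736 against 0.0193) and Hoxb4 (0.00736 against 0.0228). For Hoxb6 they were above them (0.00736 against 0.00526).

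Hoxd13 had wild-type means of 0.0356 (CTFs-like) and 0.150 (CBFs-like), a log2 ratio of -2.08 (-2.69 to -1.52). The reporter means were 0.0153 and 0.0301 with a ratio of -0.98 (-2.22 to 0.05), which stopped short of 2-fold. Hoxd10, a motor neuron gene of the lumbar cord, had 0.0368 against 0.0997 in the wild-type library (-1.44, -2.05 to -0.87) and 0.0765 against 0.0637 in the reporter library, where the sign turned at a clustering resolution of 0.8 (log2 ratio -0.24). Hoxd4 was the member higher in CTFs-like cells in both, at 0.0209 against 0.00790 and 0.0210 against 0.00672 (log2 ratios 1.40, 0.27 to 2.56, and 1.65, 0.48 to 2.72). Hoxd4 shares 52.3% of its exon bases with Hoxd3 and Gm28230 combined on the same strand, so its counts cannot be assigned with certainty.

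The genes at the top of the CTFs-like cells were those of posterior cluster A. Hoxa10, a gene of the posterior trunk and the female tract, was above 0 in 57.8% of wild-type CTFs-like cells (54.3 to 61.2), 52.9% of CBFs1-like (49.9 to 55.8) and 33.1% of CBFs2-like cells (29.0 to 37.4), with means of 1.13, 0.815 and 0.509. The intervals of CTFs-like and CBFs1-like cells touch, and both lie above that of CBFs2-like cells. The reporter means were 0.449, 0.372 and 0.203. Hoxa9, its neighbour, had wild-type means of 0.368, 0.225 and 0.115 in the same order of types, and reporter means of 0.0803, 0.0820 and 0.0363, so CTFs-like cells were not above CBFs1-like cells there. Hoxa7 had 0.229, 0.207 and 0.131, and 0.0880, 0.0548 and 0.0363.

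The Hox genes with the highest means in smooth muscle-like cells were also of posterior cluster A. The 10 general fibroblast markers summed in these cells to 30.2% of their fibroblast level, and the part of fibroblast RNA in the values was not tested. Hoxa10 had a mean of 1.17 and was above 0 in 60.9% of the 950 cells (57.8 to 64.1), Hoxa13 had 0.492 in 36.0% (32.9 to 39.1) and Hoxa11 0.316 in 24.8%. The smaller of the 2 smooth muscle-like clusters, of 62 cells, was lower in all 3, at 0.516, 0.0968 and 0.0968, than the larger, of 888 cells, at 1.21, 0.519 and 0.331. The smaller cluster had a median of 1698 genes per cell against 2656. Its smooth muscle markers had a median log2 fold of 1.49 against 5.38. Against the 3 fibroblast types together, 28 Hox genes met the minimum, 0 were past 2-fold higher and 13 lower (Hoxa6, Hoxb2 to Hoxb7, Hoxc6, Hoxc9, Hoxc10, Hoxd4, Hoxd9 and Hoxd13), where all genes gave 6.53% and 15.5%. The median log2 ratio was -0.52, against -0.13 over all genes. Hoxb3 had the largest difference, at 0.00211 against 0.0329 (-3.97, -7.04 to -2.07), and rested on 2 counts in smooth muscle-like cells. Hoxd13 had 0.0305 against 0.112 (-1.88, -2.48 to -1.32), close to its level in CTFs-like cells. The comparisons of smooth muscle-like, endothelial-like and epithelial cells use the same fibroblasts, so their values stand side by side and are not independent.

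Endothelial-like cells were led by central genes, and pericyte-like cells shared part of them. Hoxb4 had its highest mean among the named types of over 20 cells in blood endothelial-like cells, at 0.554 (above 0 in 30.8% of 590 cells, 27.1 to 34.7), with pericyte-like cells at 0.441 (24.6%, 17.1 to 33.4) and glia-like cells at 0.410 (28.2%, 18.6 to 39.5). The 3 intervals overlap, so these types could not be put in order. Hoxb2 had 0.492 in pericyte-like, 0.237 in blood endothelial-like and 0.179 in glia-like cells, and was at 0 in 45 lymphatic endothelial-like cells, which allows a share of up to 6.67%.

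Against fibroblasts, 28 Hox genes met the minimum in endothelial-like cells (blood and lymphatic together), 15 were past 2-fold higher (Hoxa3 to Hoxa7, Hoxb2 to Hoxb9, Hoxd4 and Hoxd8) and 9 lower (Hoxa10, Hoxa11, Hoxa13, Hoxc6, Hoxc9, Hoxc10, Hoxd10, Hoxd11 and Hoxd13). All genes gave 12.1% higher and 24.3% lower, and the medians were 1.20 for the Hox genes and -0.26 for all genes. All the higher members belong to groups 2 to 9, and 8 of the 9 lower ones to groups 9 to 13, Hoxc6 being the exception.

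Hoxb7 had a mean of 0.320 in endothelial-like cells and 0.0142 in fibroblasts, a log2 ratio of 4.49 (3.97 to 5.05). Hoxb9 had 0.294 and 0.0134 (4.46, 3.92 to 5.04) and Hoxa5, which also acts in lung and gut development, 0.280 and 0.0516 (2.44, 2.10 to 2.78). At the other end Hoxa13 had 0.0110 and 0.339 (-4.94, -6.26 to -3.90), and it was above 0 in 0.945% of endothelial-like cells. The 10 general fibroblast markers summed there to 5.02% of their fibroblast level. Hoxa13 stood at 3.25% of its own and Hoxd11 at 4.37%, both below that gauge. Hoxd13 (5.61%) and Hoxa11 (7.03%) stood slightly above that gauge, and Hoxd10 (18.0%) and Hoxa10 (28.7%) further above it. The part of RNA from other cells in these counts was not tested. Hoxc6 and Hoxc9 were at 0 in all 635 cells and at least 4.56-fold and 5.94-fold lower than in fibroblasts against a floor of 3 counts over the class.

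Blood and lymphatic endothelial-like cells differed within the vessel group. The 45 lymphatic cells were led by cluster D, which gave 49.6% of their Hox sum against 11.7% in blood endothelial-like cells. Hoxd8 had 0.533 and 0.266, Hoxd9 0.422 and 0.0831 and Hoxd4 0.311 and 0.0746 in lymphatic and blood cells, while Hoxb9 was at 0 and 0.317. The number of lymphatic cells is small, and Hoxb4 shows it: its share above 0 of 17.8% had an interval of 8.0 to 32.1, which covers the 30.8% of blood endothelial-like cells.

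Glia-like cells, which derive from the neural crest, had a smaller Hox sum than the vessel types, at 1.73, of which cluster B gave 65.2%. Hoxb4, Hoxb5, Hoxa5 and Hoxb2 led them, and Hoxb5, a gene of the vagal neural crest, had a mean of 0.205 there against 0.0763 in blood endothelial-like cells. Hoxa10 was at 0.0256 and Hoxa13 at 0.0256 in the 78 cells. A further 20 cells, called interstitial cells of Cajal-like, held the highest sum, 15.1, with means of 3.6 for Hoxa10, 2.05 for Hoxb2 and 1.80 for Hoxb4; so few cells give no more than a description.

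**Figure D4:**
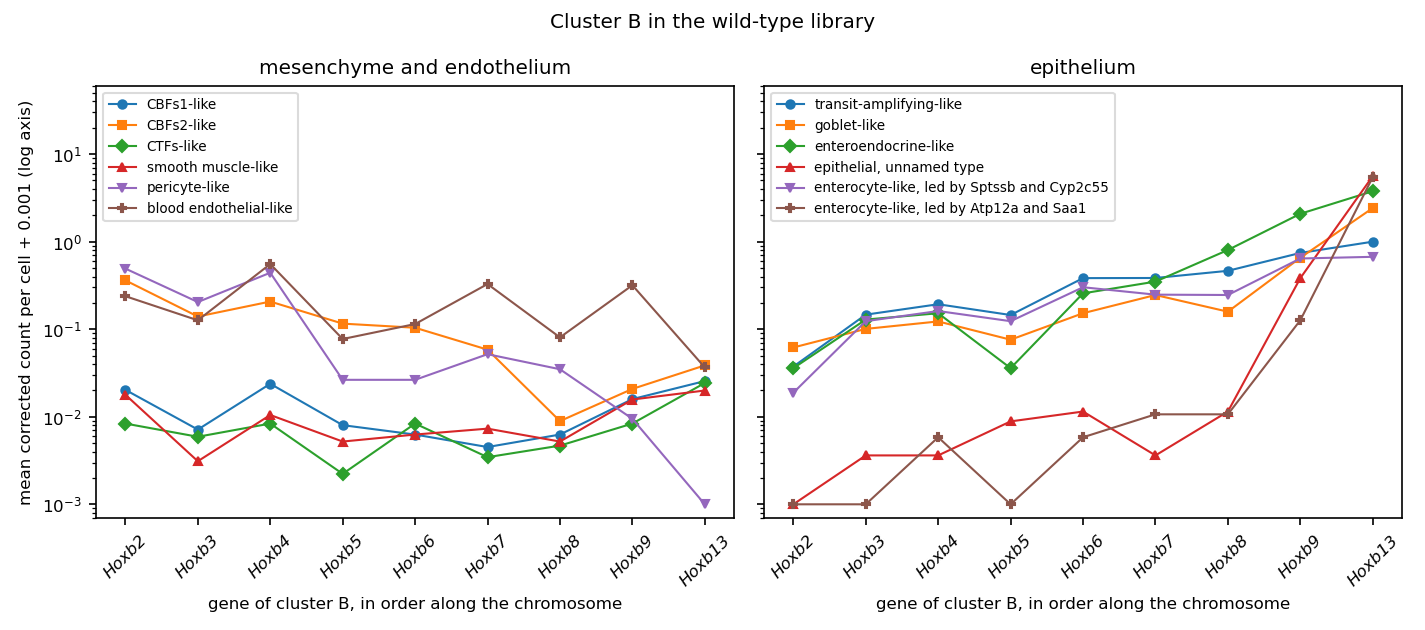
Mean corrected count per cell plus 0.001 (log axis) of the 9 listed cluster B genes, in their order along the chromosome, in mesenchymal and endothelial classes, left, and epithelial classes, right, of the wild-type library. Left, CBFs2-like, pericyte-like and blood endothelial-like cells stay above 0.1 for Hoxb2, Hoxb3 and Hoxb4 and the other types do not; right, the Krt36-led class is low throughout Hoxb2 to Hoxb8 at a Hoxb13 mean of 5.60, while enteroendocrine-like cells are high in both Hoxb13 (3.77) and Hoxb8 (0.802).

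The epithelium was marked by Hoxb13, a group 13 gene known from prostate and hindgut. Its mean was 2.48 over the 2479 epithelial cells, 59.3% of which had it above 0 (57.3 to 61.2), and 0.0268 over the fibroblasts, of which 1.99% did (1.48 to 2.62). In wild-type fibroblasts it stood at 1.08% of its epithelial level, below the 2.50% at which the 9 epithelial markers stood. In reporter fibroblasts it stood at 0.213%, above the 0.141% of the epithelial markers. The part of RNA from other cells in the fibroblast counts was not tested. Of the reporter library, 16 of 52 epithelial cells (30.8%, 18.7 to 45.1) and 3 of 4243 fibroblasts (0.0707%, 0.0146 to 0.206) had it above 0. Those 52 cells came through a gate for GFP and carried the fibroblast markers at 19.7 summed counts per cell, against 62.7 in fibroblasts, and the part of mixed droplets in their values was not tested.

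Against fibroblasts, 30 Hox genes met the minimum in epithelial cells, 16 were past 2-fold higher (Hoxa2 to Hoxa7, Hoxb3 to Hoxb9, Hoxb13, Hoxd4 and Hoxd12) and 7 lower (Hoxa10, Hoxa11, Hoxb2, Hoxc6, Hoxc9, Hoxc10 and Hoxd9). All genes gave 38.8% higher and 19.2% lower, so large shares of all genes were past 2-fold here, and the medians were 1.13 for the Hox genes and 0.56 for all genes. Hoxb13 had a log2 ratio of 6.53 (6.18 to 6.91), Hoxb9 5.58 (5.08 to 6.12) and Hoxb8 5.56 (4.77 to 6.47). Hoxa3, known from thymus development, had 0.230 against 0.0252 (3.19, 2.81 to 3.59). Hoxd12 was above 0 in 52 epithelial cells and in 0 of 2460 fibroblasts, which allows a share of up to 0.122%, and was at least 17.2-fold higher against a floor of 3 counts over the fibroblasts. It met the minimum through the epithelium alone, so it had to differ.

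Posterior cluster A and D genes did not follow a single rule in the epithelium. Hoxa11 was lower there, at 0.0432 against 0.336 (-2.96, -3.27 to -2.67), and Hoxa10 was at 0.343 against 0.857 (-1.32, -1.44 to -1.20). Enteroendocrine-like cells stood apart from the pooled epithelium in Hoxa10, with a mean of 1.33. Hoxa13, at 0.234 against 0.339, and Hoxd13, at 0.217 against 0.112, stayed within 2-fold. Fibroblast markers stood at 0.960% of their fibroblast level in epithelial cells, while Hoxa10 stood at 40.0%, Hoxa11 at 12.8% and Hoxa13 at 68.9%, all above that gauge. Over all epithelial cells together cluster C was at or near 0. Hoxc10 had 1 corrected count in 2479 cells against 82 in 2460 fibroblasts (-6.37, -11.7 to -3.85).

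Epithelial classes differed among themselves in Hoxb13 and in the rest of cluster B. Hoxb13 had a mean of 5.60 in an unnamed class of 382 cells led by Krt36, Defb45 and Fut9 (381 cells above 0), 3.77 in enteroendocrine-like, 2.42 in goblet-like, 2.18 in enterocyte-like and 0.999 in transit-amplifying-like cells. The shares above 0 were 99.7% (lower bound 98.6), 67.4% (56.5 to 77.2), 66.8% (63.0 to 70.4), 54.1% (50.2 to 58.0) and 34.6% (31.1 to 38.2). The interval of the 86 enteroendocrine-like cells overlaps those of goblet-like and enterocyte-like cells, and the other classes are apart. At least 1 gene from Hoxb2 to Hoxb8 was above 0 in 51.3% of transit-amplifying-like (47.5 to 55.0), 33.1% of goblet-like (29.4 to 36.9), 32.6% of enteroendocrine-like (22.8 to 43.5), 28.5% of enterocyte-like (25.1 to 32.1) and 3.14% of the Krt36-led cells (1.63 to 5.42). The classes at both ends had opposite places in the 2 orders, but those between did not: enteroendocrine-like cells had the second highest Hoxb13 and, at 1.76 corrected counts per cell against 1.75 in transit-amplifying-like cells, no lower a sum of the block.

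The pair of enterocyte-like clusters stood far apart. In the 449 cells led by Sptssb and Cyp2c55, Hoxb13 had a mean of 0.670, Hoxb6 0.301, Hoxb9 0.641 and Hoxd13 0.00668. In the 207 cells led by Atp12a and Saa1 the same genes had 5.45, 0.00483, 0.126 and 0.623. Hoxd10 and Hoxd11 went with Hoxd13, at 0.00445 and 0.00891 in the first cluster and 0.121 and 0.386 in the second. Hoxa7 and Hoxa10 differed little between them, at 0.261 and 0.151 against 0.179 and 0.135.

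Within single cells Hoxb13 and the block from Hoxb2 to Hoxb8 were seldom above 0 together, a split that was chosen after the values were seen. Of the 2479 epithelial cells 1331 (53.7%) had Hoxb13 alone, 667 (26.9%) the block alone, 138 (5.57%) both and 343 (13.8%) neither. Thinned to 1000 corrected counts the numbers were 476, 208, 0 and 1795. In the Atp12a-led enterocyte-like cluster 97.6% had Hoxb13 alone and 0% the block alone, and in the Sptssb-led cluster 29.6% and 37.2%.

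**Figure D5:**
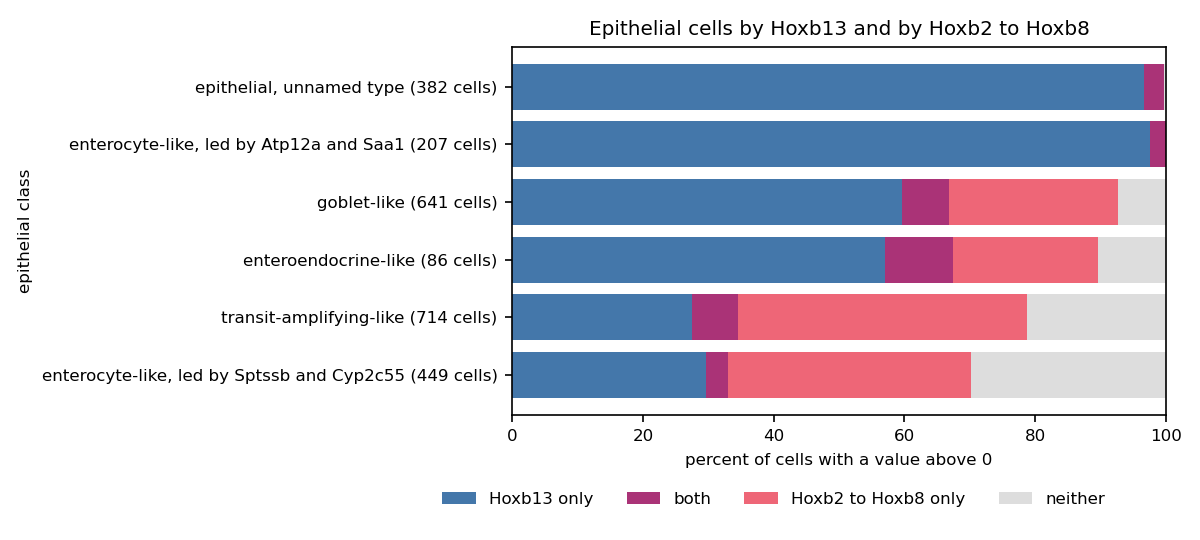
Percent of cells of each wild-type epithelial class (bars, cells in brackets) with Hoxb13 alone, both, at least 1 gene from Hoxb2 to Hoxb8 alone, or neither above 0. The Krt36-led unnamed class and the Atp12a-led enterocyte-like cluster are almost wholly Hoxb13 alone (96.6% and 97.6%), and the share with both is at most 10.5% in any class.

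The same split held inside goblet-like and transit-amplifying-like cells, which were not separated by it. It could not be examined in the Krt36-led class, where 381 of 382 cells had Hoxb13, among them all 12 with the block. Among goblet-like cells the block was above 0 in 10.7% of the 428 cells with Hoxb13 (7.98 to 14.1) and in 77.9% of the 213 without it (71.8 to 83.3). Among transit-amplifying-like cells the shares were 20.6% (15.8 to 26.2) and 67.5% (63.0 to 71.7). Both differences are well outside the intervals. Cells with and without Hoxb13 had medians of 3246 and 3373 genes above 0 in goblet-like and 3437 and 3423 in transit-amplifying-like cells. Corrected counts were set to a common depth, so these medians cannot show whether the cells were sequenced alike.

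Posterior cluster D genes went with Hoxb13: at least 1 gene from Hoxd10 to Hoxd13 was above 0 in 31.1% of goblet-like cells with Hoxb13 and 2.35% without it, and in 14.6% and 2.14% of transit-amplifying-like cells. Hoxb9, which lies between the block and Hoxb13, was less split, at 38.1% and 67.1% in goblet-like and 47.0% and 54.0% in transit-amplifying-like cells, where the intervals overlap (40.6 to 53.4 and 49.3 to 58.6). In cluster A, Hoxa13 also went with Hoxb13, at 15.4% (12.1 to 19.2) and 4.69% (2.27 to 8.46) in goblet-like and 35.2% (29.3 to 41.5) and 15.6% (12.5 to 19.2) in transit-amplifying-like cells. At least 1 gene from Hoxa3 to Hoxa7 was above 0 in 56.8% and 55.9% of goblet-like cells, with overlapping intervals (51.9 to 61.5 and 48.9 to 62.6), and in 76.1% (70.3 to 81.3) and 64.5% (59.9 to 68.8) of transit-amplifying-like cells, where they were apart. The genes from Hoxa3 to Hoxa7 thus did not run against Hoxb13 in these classes as those from Hoxb2 to Hoxb8 did. Cells of 1 library are not replicates, and whether the cells came from different mice or stretches of colon cannot be told apart here.

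Cluster C was low in all classes, with its highest wild-type sum in CTFs-like cells, at 0.112 corrected counts per cell. In smooth muscle-like cells it gave 1.13% of the Hox sum. Hoxc6 had its highest mean in enteroendocrine-like cells, at 0.0465. Hoxc10, Hoxc9 and Hoxc6, genes of the trunk and lumbar cord, had means of 0.0333, 0.0280 and 0.0215 in the 3 fibroblast types, and cluster C gave 3.28% of the fibroblast Hox sum against 0.0727% in the epithelium and 0.0422% in endothelial-like cells. In the reporter library Hoxc10 was higher in CTFs-like cells, at 0.0325 against 0.0134 in CBFs-like cells (log2 ratio 1.27, 0.39 to 2.09), and in the wild-type library it was at 0.0270 against 0.0365.

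Hox proteins bind DNA together with cofactors of the TALE class, and the genes for 8 of these were followed. In CBFs2-like over CBFs1-like cells of the wild-type library, 3 of the 7 that met the minimum were past 2-fold higher and 1, Pknox2, lower, where 8.5% and 5.98% of all genes were. Meis2 had 2.32 against 0.715, Meis1 0.657 against 0.251 and Pbx3 0.396 against 0.121. In the reporter library 2 of 7 were higher, Meis2 (0.542 against 0.212) and Meis1 (0.172 against 0.0670), where 4.83% of all genes were. Pknox2 was lower again, where 14.2% of all genes were. The fibroblast type with cluster B genes thus also had the higher levels of Meis1 and Meis2 in both libraries. In epithelial cells 4 of 8 were lower than in fibroblasts and 0 higher (19.2% and 38.8% of all genes), with Meis2 at 0.0133 against 0.988, and in endothelial-like cells 3 of 7 were lower (24.3% of all genes), with Pknox2 at 0.00787 against 0.0850. In CTFs-like over CBFs-like cells 3 of 7 were lower in the wild-type library (11.6% of all genes). In the reporter library 0 of 8 were lower and 1, Pbx4, higher (11.7% and 6.78% of all genes).

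The caudal genes Cdx1 and Cdx2, which drive intestinal identity and lie upstream of posterior Hox genes in the embryo, had means of 2.61 and 1.44 in the epithelium and 0.0443 and 0.0220 in fibroblasts. Cdx2 was at 0.283 in Krt36-led, 0.488 in enteroendocrine-like, 0.902 in goblet-like, 1.71 in enterocyte-like and 2.41 in transit-amplifying-like cells. This is the reverse of their order in mean Hoxb13. Cdx1 did not follow that order, at 3.28, 1.01, 2.45, 1.94 and 3.20 in the same classes. Of 14 Polycomb genes, whose products keep Hox clusters silent, 13 met the minimum in CBFs2-like over CBFs1-like cells of each library. Past 2-fold higher was 1 of them in the wild-type library (Eed, at 0.356 against 0.175), where 8.5% of all genes were. In the reporter library 0 of them were past 2-fold higher, where 4.83% of all genes were. In epithelial cells over fibroblasts 3 of 14 were higher (Ezh2, Cbx2 and Cbx8) and 1 lower (Ezh1), where 38.8% and 19.2% of all genes were. Of 5 trithorax genes, 1 was past 2-fold higher in wild-type CBFs2-like cells (Kdm6b, at 1.71 against 0.625), where 8.5% of all genes were. In the reporter library Kdm6b was at 1.85 against 0.976, and 0 of the 5 were past 2-fold. Of 4 other regulators, 1 was past 2-fold lower in CTFs-like than in CBFs-like cells of each library (11.6% and 11.7% of all genes). It was Rarb, a retinoic acid receptor gene. Its means were 0.00736 against 0.0322 in the wild-type library and 0.00574 against 0.0124 in the reporter library, so the calls rest on low levels.

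Noncoding transcripts of the clusters are listed for the reporter library, which holds 1294 long noncoding genes against 15 in the wild-type library. Hoxb3os, antisense to cluster B, had a mean of 0.0422 in CBFs2-like and 0 in CBFs1-like cells, and Hoxd3os1 had 0.0469 and 0.00593. Hoxa11os had 0.0985 and 0.271, the direction of Hoxa11. The sources used here do not say whether counting used strand, so counts of a gene and of its antisense partner cannot be told apart.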

How the data were processed

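Cells of 2 libraries were analysed, 1 per group. The deposited tables hold corrected counts, which the authors made with SCTransform in Seurat 3.1 (R 3.6.2) after mapping to mm10 with Cell Ranger and filtering cells on genes and mitochondrial share. They are whole-number scores and not molecule counts. The second deposited table of each library is the natural log of 1 plus these scores. No authors' cell names were used.

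Cells were clustered in R 4.3.3 with Seurat 5.3.0 (3000 variable features minus the Hox genes among them, 30 principal components, resolution 0.45 wild-type and 0.3 reporter), which gave 21 and 7 clusters. A cluster was named from 20 marker lists where a list's median log2 fold over the other cells (pseudocount 0.01) was at least 1, at least 3 markers were past 2-fold and lists of other broad types were lower by at least 1; a fibroblast cluster had to average 8 or more of 10 general fibroblast genes in its cells. Fibroblast clusters were scored against the other fibroblasts, and those left without a type against the CTFs-like and CBFs2-like clusters; all 3 reporter CBFs1-like clusters were named in that last step (median log2 folds of 1.66, 2.08 and 2.02, 7 of 7 markers past 2-fold), and against all other cells their medians were 0.27, 0.85 and 0.61. The naming rule was set after the marker scores had been seen, and 585 wild-type cells, 132 fibroblasts and 382 epithelial cells stayed without a type. Values are means of the corrected counts over cells, computed in Python 3.11.15 (numpy 2.4.6, scipy 1.17.1, scanpy 1.11.5). A gene was called where the ratio of class means was past 2-fold among genes with at least 20 summed counts over both classes, with a floor of 3 counts for a class at 0. Ratio intervals (95%, conditional exact) treat each corrected count as 1 molecule, and shares have Clopper-Pearson intervals, with 3 counts as the limit beside a share of 0; both leave out the spread between mice. Free RNA was gauged by the level of another type's marker list. Every Hox gene row was in scope, with a list of 50 partner and regulator genes, of which those named are past 2-fold in a comparison; some further genes are not reported here. The genes, lists and comparisons were chosen with earlier results of these data known. Alternatives were the class total as denominator, log values, thinning to 1000 counts, other clustering settings, other thresholds and left-out cells; 3 of them (the highest Scrublet scores left out, 1 CBFs1-like cluster, 1 smooth muscle-like cluster) were added after the data were seen.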

Additional observations from a re-analysis of the deposited data

How the results depend on the processing

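No paired analysis was possible because each group is 1 library with replicate number 1 and no result comes from a test. Ratios of the 96 genes and comparisons past 2-fold changed sign under no alternative except thinning. Of 10 ratios within 2-fold that the text names, Hoxb9 in CBFs2-like over CBFs1-like cells went to -0.023 without cells above 10% mitochondrial counts, Hoxd10 in reporter CTFs-like over CBFs-like cells to -0.24 at resolution 0.8 and Hoxd13 in reporter CBFs2-like over CBFs1-like cells to -0.62 when thinned. The minimum sum and the 1.5-fold threshold do not enter a ratio. The counts of genes past 2-fold are sensitive to the scale. On the mean natural log scale every count fell to 0 except 1 gene higher in epithelial cells, since differences of mean log values this small seldom reach 2-fold.

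Thinning each cell to 1000 corrected counts left few genes above the minimum: CTFs-like over CBFs-like cells of the wild-type library gave 0 higher and 2 lower, CBFs2-like over CBFs1-like 1 higher, smooth muscle-like 3 lower, endothelial-like 9 higher, epithelial 10 higher and 4 lower, and the reporter library 1 higher and 1 lower in CTFs-like and 4 higher in CBFs2-like cells. Low genes changed sign there, in CTFs-like over CBFs-like cells Hoxb9 to 0.013 (wild-type) and Hoxb6 to 1.61 (reporter), in smooth muscle-like cells Hoxa6 and Hoxc9 to 0.96 and Hoxb7 to 0.15, and in endothelial-like cells Hoxc9 to 1.54. Thinned shares of cells with a Hox gene were 27.5%, 27.1%, 29.0%, 28.0%, 34.6% and 46.2% (CBFs1-like, CBFs2-like, CTFs-like, smooth muscle-like, endothelial-like, epithelial) and 23.2%, 23.1% and 27.9% in the reporter library (CBFs1-like, CBFs2-like, CTFs-like). The thinned cluster B share was 61.3% for epithelial, 42.1% for CBFs2-like, 4.92% for CBFs1-like and 1.40% for CTFs-like cells and 0% for reporter CTFs-like cells, and the posterior share 48.5% in CBFs2-like and 23.9% in endothelial-like cells.

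Counts in CTFs-like over CBFs-like cells of the wild-type library moved from 1 higher to 2 with the class total as denominator, without cells above 10% mitochondrial counts and without the highest Scrublet scores, to 3 with 15 principal components and to 8 at 1.5-fold. For CBFs2-like over CBFs1-like cells no minimum sum gave 11 higher and 4 lower, 1.5-fold 8 lower, and resolution 0.8 and the Scrublet alternative 4 lower each. Smooth muscle-like cells had 1 gene higher with no minimum sum and 8 lower with 15 principal components. In the reporter library CTFs-like cells had 0 higher and 5 lower at resolution 0.8, 4 higher with no minimum sum, 4 higher and 5 lower at 1.5-fold, and 1 higher and 6 lower with 1 CBFs1-like cluster; CBFs2-like cells had 6 lower at 1.5-fold.

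Without cells above 10% mitochondrial counts the shares with a Hox gene were 88.8% in CTFs-like, 90.3% in smooth muscle-like, 89.3% in endothelial-like and 99.0% in epithelial cells, and at resolution 0.8 they were 96.7% in epithelial and 61.2% in reporter CBFs1-like cells. Without the highest Scrublet scores cluster B gave 1.97% of the smooth muscle-like sum and groups 9 to 13 gave 24.1% of the endothelial-like sum. The causes of these changes were not tested. Corrected counts hide each cell's true depth, so low values are less certain than their intervals show.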
